A study of Mus musculus with 6 samples.

Results

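The 39 genes described here encode the proteins that carry long-chain fatty acids into the muscle fiber and burn them in the mitochondrion, from lipoprotein lipase at the capillary to the last enzymes of beta-oxidation. They were taken from a list of gene symbols, which was matched to the deposited TPM tables and joined by gene identifier to the deposited counts. All 39 were found among the 45777 genes of the count table, and all 39 passed the filter on low counts that left 16188 genes for testing. The libraries came from the tibialis anterior (TA) muscle, a fast muscle of the lower leg, of male C57BL/6J mice with a labelled age of 24 months. For these mice the paper's methods give a range of ages that starts at 24 months, and its results give an older age. The vehicle group (3 libraries) received the solvent, a mixture of DMSO and Tween 80, and the BML-260 group (3 libraries) received BML-260, a small molecule used in the study as an inhibitor of the phosphatase DUSP22, at 5 mg/kg by intraperitoneal injection for 1 month. The labels give the strain and name no genetic change for either group. The paper's list of reagents gives its C57BL/6J mice an identifier that names the gene Gpr37. Young or untreated mice were not part of the series. The comparison asks which transcripts differ in old muscle after inhibitor treatment.

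Muscle takes up fatty acids that lipoprotein lipase releases from circulating lipoproteins, with the help of the membrane protein CD36 and of transport proteins. Inside the fiber the acids are bound by FABP3, joined to coenzyme A by acyl-CoA synthetases, passed through the mitochondrial membranes as carnitine esters, and shortened by repeated rounds of beta-oxidation, whose electrons enter the respiratory chain through the electron transfer flavoprotein. Malonyl-CoA, made by ACACB and removed by MLYCD, restrains the entry step at CPT1. Many genes of this pathway, though not all of those listed, are well-known targets of the fatty acid sensing PPAR receptors. PDK4, UCP3 and ANGPTL4 rise in fasted muscle as fuel use turns from glucose to fat.

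The libraries held between 39522890 and 56998875 counts. All 7 fast glycolytic fiber markers and all 7 general myofiber markers were tested and abundant, with summed levels per library of 59150 to 77450 TPM and 66030 to 99810 TPM, the lowest myofiber sum being that of vehicle 3. Vehicle 3 stood apart from the other libraries: its correlation with them across genes (Pearson's r of log2 CPM; genes are not independent replicates) was 0.94 to 0.948, against 0.972 to 0.985 among the other 5. The summed TPM of 8 slow fiber markers was 1164 in vehicle 3 and 99 to 207.3 in the other libraries. The 10 macrophage markers summed to 578.4 TPM in vehicle 3, to 139.6 and 138.8 in the other vehicle libraries and to 82.44 to 104.5 with BML-260. Of the adipocyte list, 8 of 10 genes were tested, and its sum of 1787 to 3620 TPM was carried by Car3, which muscle also makes. Cfd stood at 163.1 TPM in vehicle 3 and at 6.15 to 8.685 TPM in the others. Adipoq stood at 15.53 TPM in vehicle 3 and at 1.135 to 1.778 TPM in the others. On normalized counts (counts divided by DESeq2's size factors), vehicle 3 was the highest library for 5 of the 8 genes and the lowest for 2. Thrsp was lowest there, with 206 normalized counts against 328 to 648. Fabp4, with 6531 in vehicle 3, lay within the range of the others (5610 to 7613). The 10 fibroblast markers summed to 901.4 TPM in vehicle 3 and to 356 to 676.3 TPM in the others. On normalized counts vehicle 3 was the highest library for 6 of these 10 and the lowest for 2. The 6 erythroid markers summed to 8752 TPM in vehicle 3 and to 1619 to 2162 TPM in the others. The endothelial list summed to 148.1 TPM in vehicle 3 and to 92.43 to 120 TPM elsewhere. However, TPM of all genes was shifted upward in vehicle 3, as given below. On normalized counts vehicle 3 was the highest library for 4 of the 10 endothelial genes and the lowest for 3, so that list did not set it apart. In whole muscle, fewer cells of a type and less RNA per cell cannot be told apart, and the part of these cell types in the results below was not tested. Values without that library are therefore given beside the results below.

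The fatty acid uptake and oxidation genes differed by small amounts between the groups, and 1 of the 39 passed the threshold. Acsl6, a long-chain acyl-CoA synthetase, was lower with BML-260, by 0.46 on the log2 scale. The threshold was a fold change of at least 1.3 in either direction (0.379 on the log2 scale) with an unadjusted p under 0.05 in edgeR's quasi-likelihood test. The single call is 2.56% of the members, beside 5.75% of all 16188 tested genes (931 genes). After Benjamini-Hochberg adjustment over all tested genes, edgeR called 0 members and 0 genes in all (0% of genes), whereas 966 genes, 1 of them a member, had an unadjusted p under 0.05. DESeq2 called 82 genes at an adjusted p under 0.05, of which 0 were members. The normalized counts (counts divided by DESeq2's size factors) did not overlap between the groups for 3 members, Acsl6, Cpt1b and Eci1. That is 7.69% of the members, beside 12.1% of all tested genes. On TPM the groups did not overlap for 1 member, Acsl6 (2.56%), beside 8.71% of the genes tested on that scale.

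The direction of these small differences depended on vehicle 3. Of the 39 log2 fold changes (BML-260 over vehicle), 28 were above 0 and 11 below, with a median of 0.134 beside a median of -0.0039 over all tested genes. Without vehicle 3, 15 were above 0 and 24 below, the median was -0.04, 13 genes changed sign and 0 members were called, beside 3.98% of the 16502 genes tested without that library. The median size of a log2 fold change, whatever its sign, was 0.176 for the members and 0.209 for all tested genes. The 95% interval of the fold change lay within 2-fold in both directions for 33 of the 39 members, beside 63.5% of all tested genes. Among the members, the interval reached beyond 2-fold for Lpl, Fabp3, Acads, Acot1, Angptl4 and Ucp3. Changes of 2-fold or more thus lay outside the interval for most members.

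**Figure D1:**
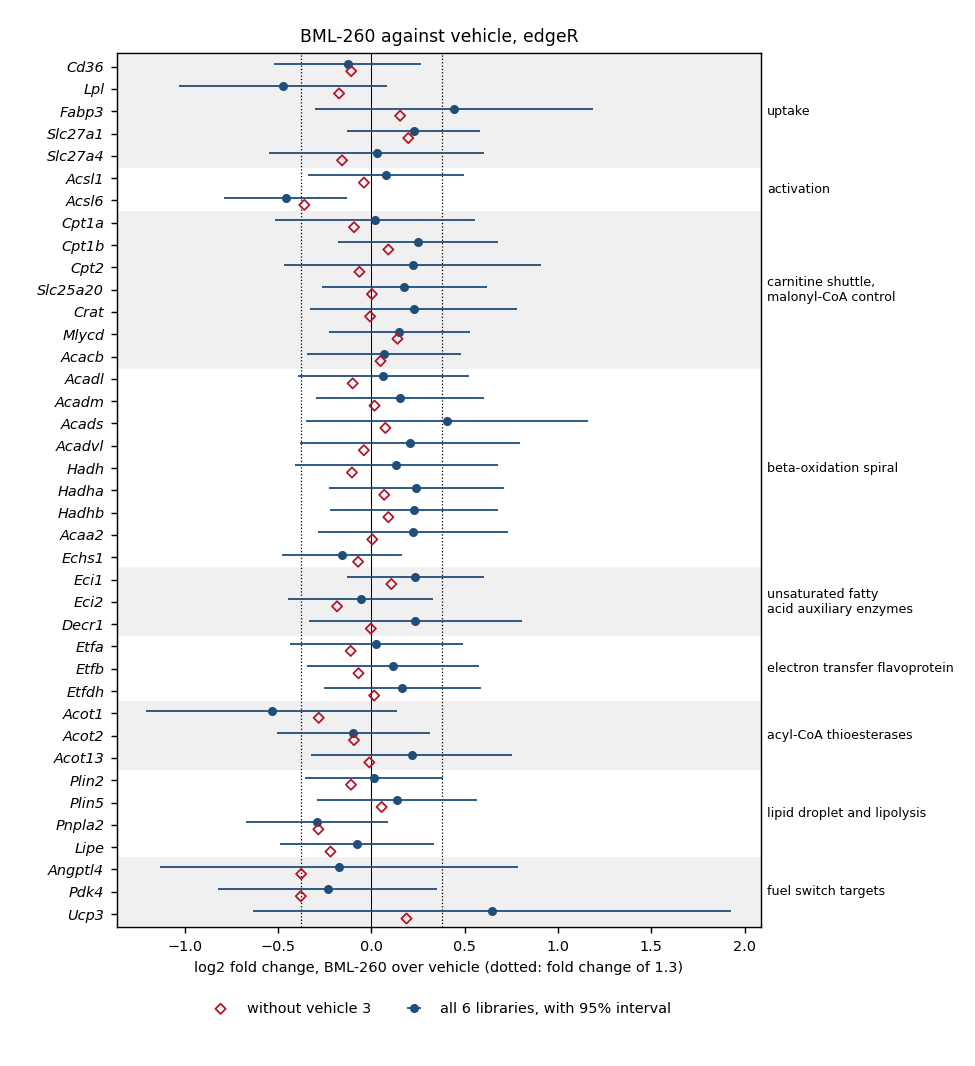
Log2 fold change of each of the 39 genes, BML-260 over vehicle, from edgeR, by role. Filled points with bars are the estimates from all 6 libraries with 95% intervals, open diamonds are the estimates without vehicle 3, and the dotted lines mark a fold change of 1.3. The interval of Acsl6 (-0.79 to -0.13) lies below 0, and many diamonds in the beta-oxidation rows lie nearer 0 than the filled points.

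The genes differed widely in level. In TPM, which is scaled for transcript length so that genes can be set side by side, 18 members had a mean of at least 100 over the 6 libraries, 16 had between 10 and 100, and 5 had less than 10. In this muscle 46.2% of the members reached 100 TPM, beside 4.3% of all genes in the TPM tables. Fabp3, the cytosolic fatty acid carrier, led with a mean of 491.5 TPM, followed by Pdk4 (380.9 TPM), the kinase that shuts down pyruvate dehydrogenase, and Cd36 (231.3 TPM). Next came the acyl-CoA dehydrogenase Acadvl (219.9 TPM), the thiolase subunit Hadhb (217.7 TPM) and Etfb (207.8 TPM), a subunit of the electron transfer flavoprotein, and the libraries of these 3 genes overlapped, as did those of Fabp3 and Pdk4. The lowest were Cpt1a (4.419 TPM), the carnitine palmitoyltransferase best known from liver, Slc27a4 (3.51 TPM), Angptl4 (2.633 TPM) and Acot1 (2.422 TPM). Its muscle counterpart Cpt1b stood at 135.8 TPM. Summed over the 39 genes, the libraries held 4315, 4026 and 4182 TPM with vehicle and 3652, 4808 and 3998 TPM with BML-260. On this scale the groups overlapped and vehicle 3 lay between the other vehicle libraries. TPM of all genes was shifted upward in vehicle 3, as given below. On normalized counts vehicle 3 was the lowest library for 26 of the 39 genes.

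**Figure D2:**
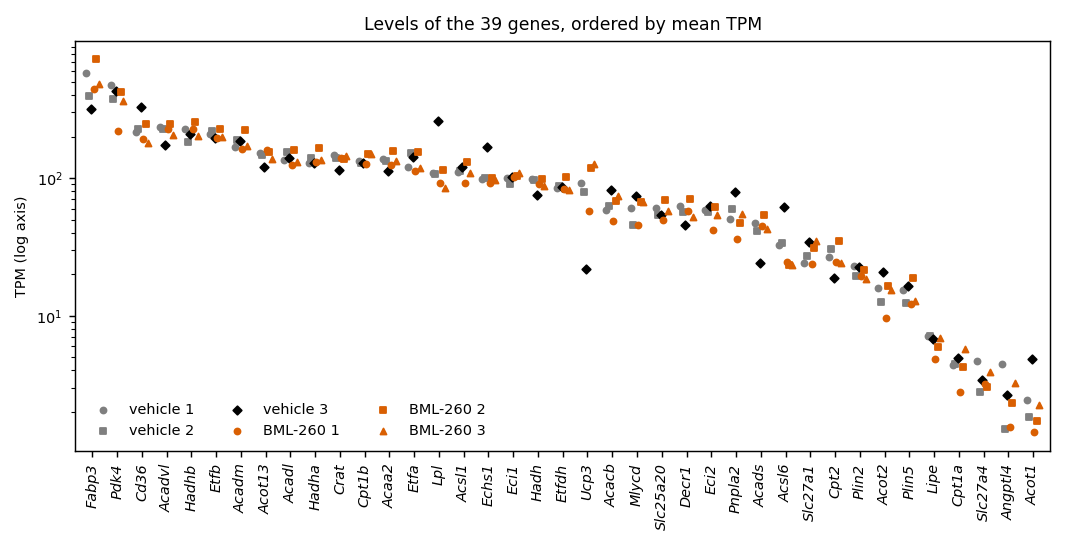
TPM of the 39 genes in each of the 6 libraries on a log axis, with the genes ordered by their mean from Fabp3 (491.5 TPM) to Acot1 (2.422 TPM). Gray symbols are vehicle 1 and 2, black diamonds are vehicle 3 and orange symbols are BML-260. The black diamond of Ucp3 lies far below its row, and those of Lpl, Echs1 and Acsl6 lie above theirs.

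Of the 5 uptake genes, 0 passed the threshold, with log2 fold changes from -0.47 to 0.44 and a median of 0.03. Lpl, the lipase that frees fatty acids at the capillary wall, had 12455, 12785 and 21535 normalized counts with vehicle and 11570, 12750 and 9436 with BML-260. Vehicle 3 was far above all other libraries, which overlapped. Its log2 fold change was -0.47 (SE 0.24, edgeR unadjusted p = 0.0868) and -0.17 without vehicle 3. Fabp3 had 11116, 8013 and 4412 normalized counts with vehicle and 9469, 13661 and 8989 with BML-260. Here vehicle 3 was the lowest library and BML-260 2 the highest, 3.1 times above it. The log2 fold change was 0.44 (SE 0.33, edgeR unadjusted p = 0.21), 0.15 without vehicle 3 and 0.78 without vehicle 1. Slc27a1, a fatty acid transport protein of the cell membrane, had 2415, 2779 and 2459 normalized counts with vehicle and 2562, 2997 and 3409 with BML-260. Its groups overlapped at vehicle 2, and the log2 fold change was 0.23 (SE 0.15, edgeR unadjusted p = 0.182), 0.20 without vehicle 3, 0.12 without BML-260 3 and 0.07 on TPM. The scavenger receptor gene Cd36 (-0.13, and -0.11 without vehicle 3) and Slc27a4 (0.03, and -0.16 without vehicle 3) had smaller differences.

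Acsl6 was the member with the smallest p. It lies on chromosome 11 (54303805 to 54364756, plus strand, GRCm38.p6), and its normalized counts were 2687, 2973 and 3460 with vehicle and 2343, 2214 and 2091 with BML-260. Every BML-260 library was below every vehicle library. The vehicle mean was 3040 ± 391 (SD, n = 3), against 2216 ± 126 (SD, n = 3) in the BML-260 group. This gave a log2 fold change of -0.46 (SE 0.14, 95% interval -0.79 to -0.13), with an unadjusted p of 0.012 and an adjusted p of 0.699 in edgeR. Vehicle 3 was the highest library, and without it the log2 fold change was -0.36 (edgeR unadjusted p = 0.0182), which is below the fold threshold. Without BML-260 3 it was -0.42 (edgeR unadjusted p = 0.0501). In TPM the levels were 32.83, 33.97 and 62 with vehicle and 24.61, 23.3 and 23.34 with BML-260, again without overlap. An antisense gene, Gm12224, shares 13111 bases with Acsl6 in the GENCODE annotation, and since the rule for strand in the counting is not given in the sources used here, reads of the pair may have been mixed.

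The partner synthetase Acsl1, the main muscle form by level (112.7 TPM against 33.34 TPM for Acsl6), had 12186, 12975 and 9676 normalized counts with vehicle and 11124, 14128 and 11622 with BML-260. The groups overlapped and vehicle 3 was the lowest. Its log2 fold change was 0.08 (SE 0.18, edgeR unadjusted p = 0.681), and it turned to -0.04 without vehicle 3. The 95% interval of Acsl1 ran from -0.34 to 0.50.

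The sequence before the start of Acsl6 is shown because Acsl6 is the gene that passed the threshold and because its window was the member window with a match to the motif of the estrogen-related receptors (ESRR), which regulate many oxidation genes. The bases lie directly upstream of the gene (chr11:54303574-54303804, plus strand, RefSeq on GRCm38.p6), and capitals mark the match.
Acsl6: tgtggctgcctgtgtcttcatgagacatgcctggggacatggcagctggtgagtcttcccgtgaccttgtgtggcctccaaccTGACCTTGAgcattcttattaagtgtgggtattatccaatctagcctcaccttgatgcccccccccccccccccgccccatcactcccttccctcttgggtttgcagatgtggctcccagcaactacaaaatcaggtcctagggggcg
Windows from 250 bases before to 50 after the start were matched for 32 of the 39 members, in 39 windows, and both strands were searched for 3 motifs. The ESRR motif TCAAGGTCA was found in 1 of the 39 member windows, on the strand opposite to Acsl6 and 167 bases before the start of that window's transcript, and in 0.423% of all 32851 windows. The PPAR:RXR direct repeat (AGGNCA repeated in the same direction with 1 base between) was found in 0 member windows and in 0.381% of all windows. The FOXO motif GTAAACA was found in 1 member window, that of Lipe, and in 3.65% of all windows. A match is a run of letters, not a shown binding site, and absence from a short window says nothing about more distant sites.

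All 7 genes of the carnitine shuttle and of malonyl-CoA control had log2 fold changes above 0 (0.02 to 0.25, median 0.18), and 0 passed the threshold. Without vehicle 3 the median was 0.003, with 4 above 0 and 3 below. Cpt1b, the muscle carnitine palmitoyltransferase at the outer membrane, had 10821, 11129 and 7569 normalized counts with vehicle and 11333, 12018 and 11857 with BML-260. All BML-260 libraries were above all vehicle libraries, by a small margin for vehicle 1 and 2 and a wide one for vehicle 3. For Cpt1b the log2 fold change was 0.25 (SE 0.19, edgeR unadjusted p = 0.218) and 0.09 without vehicle 3, and in TPM the groups overlapped. Gm44502, annotated on the same strand, shares 9459 bases with Cpt1b, so its counts may hold reads of both. Crat, the carnitine acetyltransferase, had 13578, 12943 and 7337 normalized counts with vehicle and 14183, 12818 and 12765 with BML-260. Apart from vehicle 3, the 5 libraries lay close together, and the log2 fold change of 0.23 (SE 0.24, edgeR unadjusted p = 0.374) turned to -0.01 without vehicle 3. Slc25a20, the carnitine-acylcarnitine translocase, and Cpt2, which rebuilds acyl-CoA in the matrix, had log2 fold changes of 0.18 and 0.22, and of 0.003 and -0.06 without vehicle 3. The genes that remove and make malonyl-CoA, Mlycd (0.15) and Acacb (0.07), and the liver form Cpt1a (0.02) had intervals that included 0. Without vehicle 3 these 3 genes stood at 0.14, 0.05 and -0.09.

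Of the 9 genes of the beta-oxidation spiral, 8 had log2 fold changes above 0 (median 0.21), vehicle 3 was the lowest library for the same 8, and 0 passed the threshold. Without vehicle 3 the median was 0.005, with 5 above 0 and 4 below. Acads, the short-chain acyl-CoA dehydrogenase, had 2500, 2287 and 930 normalized counts with vehicle and 2631, 2772 and 2200 with BML-260. Vehicle 3 held 0.388 of the mean of the other vehicle libraries, and the remaining libraries overlapped. Its log2 fold change was 0.41 (SE 0.33, edgeR unadjusted p = 0.252), 0.08 without vehicle 3 and 0.65 without vehicle 1. Acadvl, the very long-chain dehydrogenase that opens the spiral, had 14441, 14843 and 7824 normalized counts with vehicle and 15505, 14990 and 12439 with BML-260. Its log2 fold change of 0.21 (SE 0.26, edgeR unadjusted p = 0.448) turned to -0.04 without vehicle 3. Echs1, the enoyl-CoA hydratase, was the exception in direction, with a log2 fold change of -0.16 (-0.07 without vehicle 3) and its highest count in vehicle 3.

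Hadha and Hadhb, the subunits of the mitochondrial trifunctional protein, had similar differences between the groups. Hadha had 9962, 11351 and 7109 normalized counts with vehicle and 11151, 12404 and 10128 with BML-260. Hadhb had 13295, 12650 and 9488 normalized counts with vehicle and 14545, 15503 and 11629 with BML-260. In both genes vehicle 3 was the lowest library and BML-260 2 the highest, and the groups overlapped, while the order of the libraries between them differed. Their log2 fold changes were 0.24 (SE 0.20, edgeR unadjusted p = 0.273) and 0.23 (SE 0.20, edgeR unadjusted p = 0.274), and 0.07 and 0.09 without vehicle 3. Hadha reached 0.40 without vehicle 2, and Hadhb 0.34 without BML-260 3. The genes lie head to head on chromosome 5, Hadha on the minus strand (30119423 to 30154980) and Hadhb on the plus strand (30155253 to 30184593), with 272 bases between their starts. That stretch is shown because it is upstream of both genes. The bases before Hadhb (chr5:30155003-30155252, plus strand, RefSeq on GRCm38.p6) are printed with capitals for the 228 bases that are also upstream, on the other strand, within 250 bases of Hadha.
Hadhb: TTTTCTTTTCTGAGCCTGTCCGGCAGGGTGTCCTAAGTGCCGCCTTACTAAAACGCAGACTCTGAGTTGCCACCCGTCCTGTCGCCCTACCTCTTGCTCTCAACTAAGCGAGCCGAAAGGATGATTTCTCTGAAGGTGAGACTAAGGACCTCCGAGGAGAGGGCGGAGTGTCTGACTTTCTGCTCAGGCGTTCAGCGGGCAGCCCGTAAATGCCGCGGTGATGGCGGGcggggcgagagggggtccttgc
None of the 3 motifs was found in either window.

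**Figure D3:**
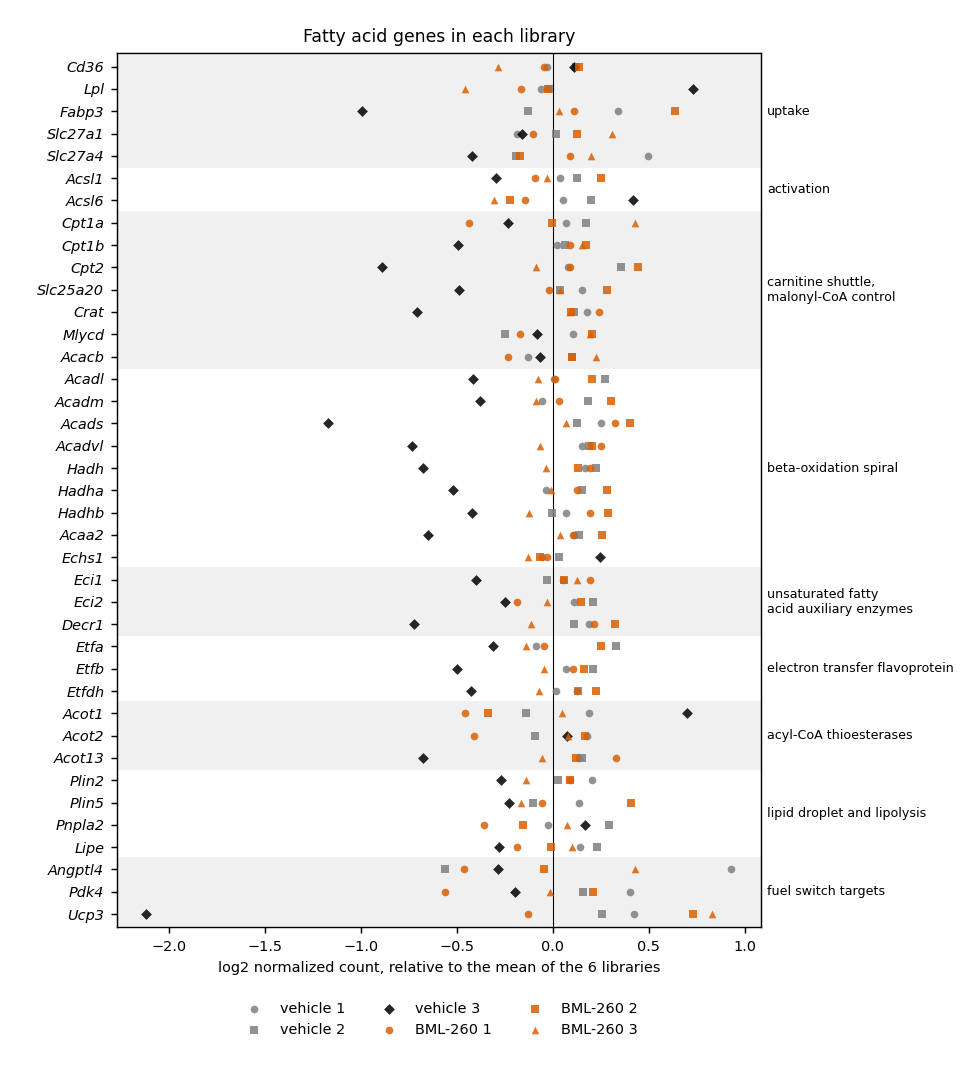
Log2 normalized count of each of the 39 genes in each library, relative to the mean of the 6 libraries of that gene, by role. Black diamonds are vehicle 3, gray symbols the other vehicle libraries and orange symbols BML-260. The black diamond is the leftmost symbol in 26 of the 39 rows, among them 8 of the 9 beta-oxidation rows, and the rightmost for Lpl, Acsl6, Echs1 and Acot1.

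The auxiliary enzymes for unsaturated fatty acids had log2 fold changes of 0.24 (Eci1), 0.23 (Decr1, the dienoyl-CoA reductase) and -0.06 (Eci2), with vehicle 3 lowest for all 3. Without vehicle 3, Decr1 stood at -0.003 and Eci2 at -0.18. Eci1, an enoyl-CoA isomerase, had 3114, 2938 and 2269 normalized counts with vehicle and 3431, 3118 and 3273 with BML-260. The groups did not overlap, although BML-260 2 was above vehicle 1 by only a few counts. Its log2 fold change was 0.24 (SE 0.16, edgeR unadjusted p = 0.178) and 0.11 without vehicle 3, and in TPM the groups overlapped. The genes of the electron transfer flavoprotein and its oxidoreductase, Etfa (0.03), Etfb (0.12) and Etfdh (0.17), also had their lowest count in vehicle 3. Without it, Etfa stood at -0.11 and Etfdh at 0.02. Etfb had 5344, 5895 and 3603 normalized counts with vehicle and 5496, 5701 and 4947 with BML-260. The groups overlapped, and the log2 fold change of 0.12 (SE 0.20, edgeR unadjusted p = 0.577) turned to -0.07 without vehicle 3. Gm45233 shares 13673 bases with Etfb on the same strand, so the counts may not be those of Etfb alone.

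The acyl-CoA thioesterases, which split acyl-CoA into free fatty acid and coenzyme A, did not share a direction across all libraries. Without vehicle 3 all 3 had log2 fold changes below 0. Acot1, the lowest of the 39 genes, had 108, 86 and 154 normalized counts with vehicle and 69, 75 and 98 with BML-260. Vehicle 3 was the highest library and the groups overlapped. The log2 fold change was -0.53 (SE 0.29, edgeR unadjusted p = 0.105), the most negative of the list, and -0.28 without vehicle 3. Acot1 and its neighbor Acot2 on chromosome 12 share 1185 identical bases in their longest open reading frames (94% of the 1260 bases of Acot1), so reads of the pair could have been divided between them, and the low value of Acot1 is uncertain. Acot2 had a log2 fold change of -0.10 (-0.09 without vehicle 3). Acot13, the most abundant thioesterase of the list (145.9 TPM), had 2978, 3014 and 1694 normalized counts with vehicle and 3402, 2951 and 2604 with BML-260. Vehicle 3 was again far below the rest, and the log2 fold change of 0.22 (SE 0.23, edgeR unadjusted p = 0.384) turned to -0.01 without it.

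Of the 4 lipid droplet genes, 0 passed the threshold. Pnpla2, the triglyceride lipase that starts lipolysis, had 3744, 4680 and 4285 normalized counts with vehicle and 2976, 3424 and 4017 with BML-260. BML-260 3 was above vehicle 1, so the groups overlapped. The vehicle mean was 4236 ± 470 (SD, n = 3), against 3472 ± 522 (SD, n = 3) after BML-260 treatment, for a log2 fold change of -0.29 (SE 0.17, edgeR unadjusted p = 0.118). The value was -0.28 without vehicle 3 (edgeR unadjusted p = 0.114), -0.19 without BML-260 1 and -0.41 without BML-260 3. The hormone-sensitive lipase gene Lipe (-0.08) and the droplet coat genes Plin2 (0.01) and Plin5 (0.14) had smaller differences, and without vehicle 3 they stood at -0.22, -0.11 and 0.06.

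Of the 3 fuel switch genes, 0 passed the threshold, and their spread between libraries ranged from moderate in Pdk4 to the widest of the list in Ucp3. Pdk4 had 46040, 38758 and 30395 normalized counts with vehicle and 23553, 40246 and 34507 with BML-260. The groups overlapped, with vehicle 1 the highest library and BML-260 1 the lowest. The log2 fold change was -0.23 (SE 0.26, edgeR unadjusted p = 0.389) and -0.38 without vehicle 3 (edgeR unadjusted p = 0.1), and it shrank to -0.04 without BML-260 1 and to -0.08 without vehicle 1. Angptl4, a secreted inhibitor of lipoprotein lipase, ranged from 86 to 242 normalized counts within the vehicle group alone, and its log2 fold change of -0.17 had an interval from -1.13 to 0.79. With single libraries left out it lay between -0.43 and 0.43, so its direction was not fixed.

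Ucp3, the uncoupling protein of the inner mitochondrial membrane in muscle (chromosome 7, 100472991 to 100486432, plus strand, GRCm38.p6), had 6424, 5726 and 1101 normalized counts with vehicle and 4370, 7952 and 8519 with BML-260. Vehicle 3 held 0.181 of the mean of the other vehicle libraries, and the highest library was 7.74 times the lowest, the widest range of the 39 genes. In TPM the libraries stood at 92.74, 78.83 and 21.99 with vehicle and at 57.4, 117.9 and 126.2 with BML-260, so vehicle 3 was lowest on that scale too. The log2 fold change of 0.65 was the highest of the list, with an SE of 0.56 and an edgeR unadjusted p of 0.28, and it ranged from 0.19 (without vehicle 3) to 1.02 (without vehicle 1) with single libraries left out. The upstream bases of Ucp3 (chr7:100472741-100472990, plus strand, RefSeq on GRCm38.p6) are shown for the member with the widest spread, and they hold none of the 3 motifs.
Ucp3: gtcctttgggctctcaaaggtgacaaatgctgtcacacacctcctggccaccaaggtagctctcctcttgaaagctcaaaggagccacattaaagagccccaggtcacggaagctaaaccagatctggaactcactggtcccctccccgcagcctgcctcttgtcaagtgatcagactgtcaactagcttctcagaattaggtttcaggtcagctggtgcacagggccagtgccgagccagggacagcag
Ucp2, its neighbor downstream on the same strand (100493337 to 100499629), was tested among the other fuel genes and was lower with BML-260, as given below.

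**Figure D4:**
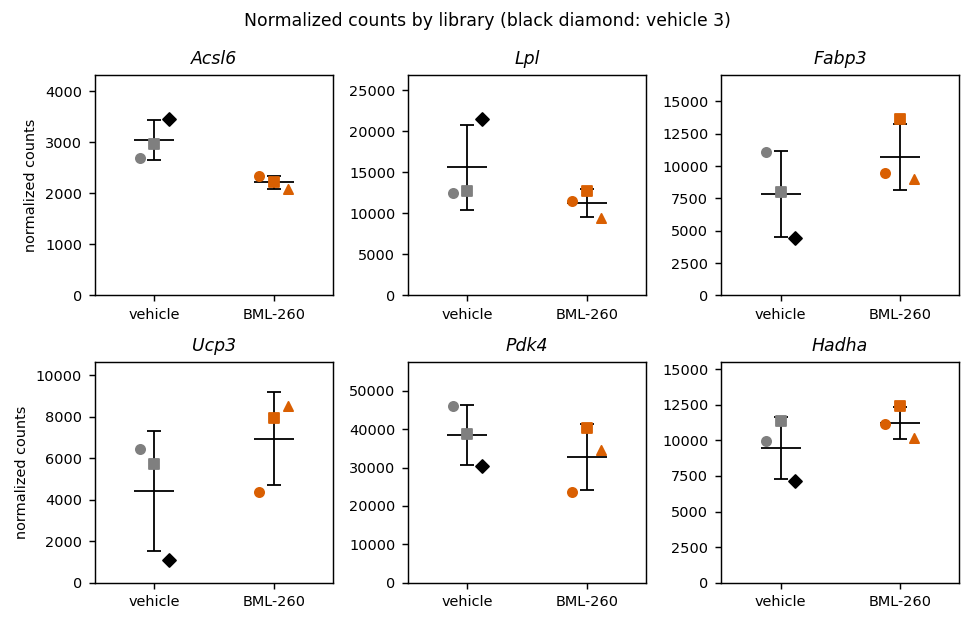
Normalized counts in each library for Acsl6, Lpl, Fabp3, Ucp3, Pdk4 and Hadha, on linear axes that start at 0. Symbols are libraries, the black diamond is vehicle 3, and horizontal lines with bars are the group mean and SD (n = 3). The groups do not overlap for Acsl6, and in the other 5 genes they do, with vehicle 3 highest for Lpl and lowest for Fabp3, Ucp3 and Hadha.

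The place of vehicle 3 was shared by most of the list. It was the lowest of the 6 libraries for 26 members (66.7%, beside 31.1% of all tested genes) and the highest for 4 (10.3%, beside 32.3%). The ratio of vehicle 3 to the mean of vehicle 1 and 2 had a median of 0.725 over the members and of 1 over all tested genes. It was under 0.8 for 28 members and above 1.2 for Lpl (1.71), Acot1 (1.59) and Acsl6 (1.22). After Ucp3 and Acads, the lowest ratios were those of Cpt2 (0.46) and Fabp3 (0.461). BML-260 2 was the highest library for 15 members. The highest library was less than 2-fold above the lowest for 30 members (76.9%, beside 60.5% of all tested genes). On TPM all genes shifted upward in vehicle 3: the log2 ratio of TPM to normalized count, relative to its mean over libraries, had a median of 0.415 there and of -0.184 to -0.021 in the others. The counts of members moved with that common shift, so they are read against all genes tested on TPM. Vehicle 3 was then the lowest library for 12 members (30.8%, beside 11.5% of the 12209 genes) and the highest for 10 (25.6%, beside 64.9%). With BML-260, 18 members were higher and 21 lower on TPM. The members' median log2 fold change of -0.004 was 0.103 above the median of -0.108 for all genes tested on that scale. Without vehicle 3 the medians on TPM were -0.025 for the members and 0.029 for all genes, so the members then lay below. Slow fiber, macrophage and erythroid markers were higher in vehicle 3 in the same data, and their part in the low values was not tested.

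**Figure D5:**
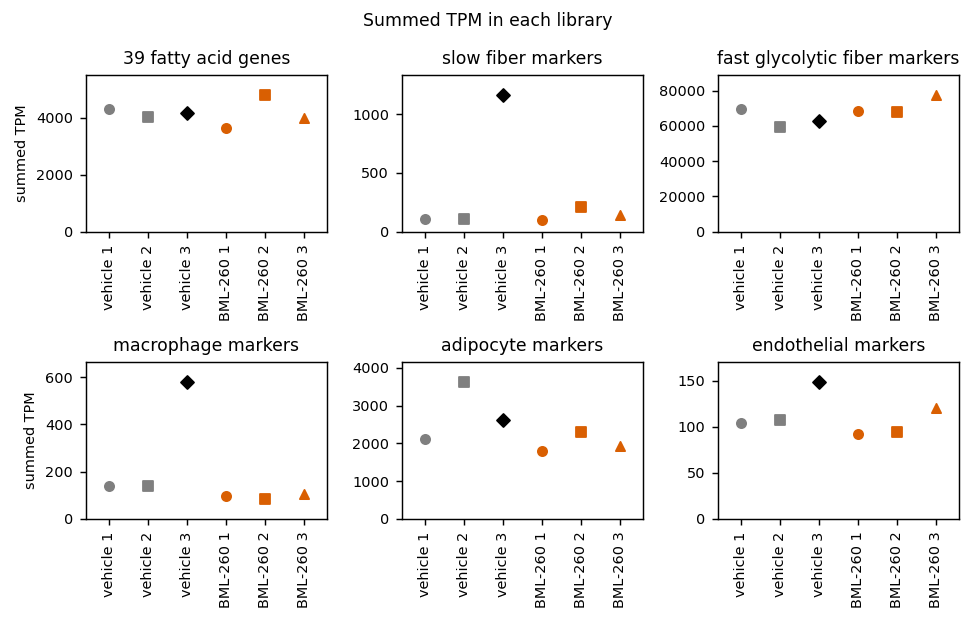
Summed TPM in each library for the 39 fatty acid genes and for 5 marker lists, on linear axes that start at 0. Black diamonds are vehicle 3, gray symbols the other vehicle libraries and orange symbols BML-260. The sum of the fatty acid genes is 4182 TPM in vehicle 3, within the range of the others, while the slow fiber sum (1164 TPM) and the macrophage sum (578.4 TPM) are far above theirs. TPM of all genes is shifted upward in vehicle 3 (median 0.415 on the log2 scale). On normalized counts vehicle 3 is the lowest library for 26 of the 39 genes.

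The wider pathway was read from 9 further lists of 166 genes, of which 162 were tested. At the same threshold 5 of the 162 passed (1 higher and 4 lower), a smaller share than the 5.75% of all tested genes. Without vehicle 3, 3 passed (Elovl5, Lpin2 and Ucp2), beside 3.98% of all genes. The lower genes were Foxo1, a transcription factor of the fasting response (-0.92, SE 0.34, edgeR unadjusted p = 0.0251), Elovl5, a fatty acid elongase (-0.64, SE 0.19, edgeR unadjusted p = 0.00894), Lpin2, a phosphatidate phosphatase (-1.24, SE 0.23, edgeR unadjusted p = 0.000592), and Ucp2 (-0.98, SE 0.23, edgeR unadjusted p = 0.00258). The higher gene was Me1, the cytosolic malic enzyme that supplies NADPH for lipid synthesis (0.53, SE 0.22, edgeR unadjusted p = 0.0418). None of the 5 had an adjusted p under 0.05. Foxo1 and Me1 had groups that overlapped, and neither passed without vehicle 3 (Foxo1 at -0.44, edgeR unadjusted p = 0.0511, and Me1 at 0.41, edgeR unadjusted p = 0.0677). Lpin2 had 318, 473 and 590 normalized counts with vehicle and 187, 194 and 204 with BML-260, and Ucp2 had 282, 372 and 441 with vehicle and 175, 156 and 227 with BML-260. In Lpin2, Ucp2 and Elovl5 all BML-260 libraries were below all vehicle libraries. Groups did not overlap for 7 of the 162 tested list genes, beside 12.1% of all tested genes. Without vehicle 3 the log2 fold changes were -1.02 for Lpin2, -0.82 for Ucp2 and -0.48 for Elovl5. The macrophage markers, of which 8 of 10 passed the threshold in the same direction, moved with these lower genes, and their part was not tested. Their median was -1.342 with all libraries and -0.615 without vehicle 3, when 7 of the 10 passed.

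Among the regulators, the receptor genes Ppara (-0.14) and Ppard (0.18) and the coactivator gene Ppargc1a (0.02) did not pass the threshold, and without vehicle 3 they stood at 0.04, 0.04 and -0.13. The median over the 20 genes of that list was 0.16 with all libraries and 0.02 without vehicle 3. No gene passed in the lists of other uptake and carnitine genes (19 tested, median -0.05), other mitochondrial acyl-CoA enzymes (24 tested, median 0.17), peroxisomal oxidation (21 tested, median 0.20), ketone body use (7 tested, median -0.02) and the tricarboxylic acid cycle (17 tested, median 0.26). Without vehicle 3 the medians of the first 4 of these lists were -0.05, 0.02, 0.009 and -0.02, and vehicle 3 was the lowest library for 18 of the 24 acyl-CoA enzymes and 16 of the 21 peroxisomal genes. The tricarboxylic acid cycle genes resembled the beta-oxidation genes in their dependence on vehicle 3: 16 of 17 had log2 fold changes above 0, vehicle 3 was the lowest library for 16, and the median was 0.03 without it. Fatty acid synthesis and desaturation (16 tested, median -0.10), triglyceride storage (22 tested, median 0.13) and pyruvate dehydrogenase with uncoupling (16 tested, median 0.14) held the calls other than Foxo1. Without vehicle 3 their medians were 0.05, 0.08 and -0.02, so the direction turned for the synthesis and the pyruvate dehydrogenase lists.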

How the data were processed

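RNA of the TA muscle was sequenced by the company Macrogen, as the paper's methods state. The library kit, TruSeq Stranded Total RNA Gold, is not named in those methods. The submitters' processing notes name the build mm10, StringTie 2.1.3b, Bowtie2 2.3.4.1, HISAT2 2.1.0 and Trimmomatic 0.38; rules for strand and shared reads are not given in the sources used here. The authors deposited raw counts per gene and, per library, TPM. The library totals ran from 39522890 to 56998875 counts.

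Counts were tested in R 4.3.3 with edgeR 4.0.16 (filterByExpr by group, TMM, quasi-likelihood F-test, Benjamini-Hochberg over 16188 genes), in place of the DESeq2 test named in the methods, which served as an alternative (1.42.0). The standard error is the log2 fold change divided by the root of F. Alternatives were other normalizations, filters, a replicate block, a robust fit, leaving out libraries, and limma 3.58.1 on log2 TPM with pseudocounts of 1 and 0.1. The scripts were tested on simulated data. Values per library are given for the 12 members with the smallest p and the most abundant member of each role. From other lists, genes at the threshold and defining genes are named; the PPAR genes were added as regulators after their values were seen. Members and lists were chosen with earlier results of these data known. Gene positions, names and promoters are from RefSeq (GRCm38.p6), and overlaps from GENCODE. The labels do not say whether same-numbered samples are related; 3 mice per group are stated in the methods.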

Additional observations from a re-analysis of the deposited data

How the results depend on the processing

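With 3 libraries in each group an exact permutation test of a single gene cannot give a p under 0.1. Acsl6 passed the threshold under all 10 alternatives that kept all 6 libraries. Leaving out each library in turn, between 0 and 3 members passed the threshold (0 without vehicle 3 and 0 without BML-260 3, and 3 without vehicle 1, when Lpl, at -0.61, and Fabp3, at 0.78, passed beside Acsl6 and 13.3% of all genes passed too), 0 passed at an adjusted p, the median log2 fold change of the members lay between -0.04 and 0.24, and between 3 and 16 genes of the other pathway lists passed (16 without vehicle 1). DESeq2 called 8 of these, beside 4.56% of all genes. On TPM, with either pseudocount and with no filter, 1 member had groups without overlap (2.56%, beside 8.71% of all genes tested on TPM). The small log2 fold changes of Acsl1 and Etfb changed sign on TPM, where the median of all genes shifted to -0.108 (pseudocount 1) or -0.122 (0.1) and both genes stayed above it (Acsl1 to -0.065 with a pseudocount of 1, with and without the filter, and to -0.066 with 0.1, and Etfb to -0.004 in all 3 fits). With single libraries left out, the lowest and highest values were -0.04 and 0.169 for Acsl1, -0.007 and 0.384 for Crat, -0.04 and 0.361 for Acadvl, -0.069 and 0.266 for Etfb, and -0.011 and 0.353 for Acot13. Vehicle 3 gave the lowest value of each. Why these values move was not tested beyond these fits. As a replicate block, the number in the labels changed no call among the members (1 called, Acsl6, with a median of 0.147) and gave 1057 calls over all genes against 931. The deviations of same-numbered libraries correlated at 0.162, 0.054 and 0.11, so the numbers were not taken as pairs, although each library correlated best with its own number.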
